A study of Mus musculus with 6 samples.

Results

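The genes described here are 10 members of the matrix metalloproteinase system, chosen by gene symbol as the inhibitors Timp1, Timp2 and Timp3 and the proteases Mmp2, Mmp8, Mmp9, Mmp12, Mmp13, Mmp14 and Mmp19, out of 41388 gene identifiers counted in bulk liver RNA. All libraries came from BALB/c mice with liver fibrosis from 5 weeks of carbon tetrachloride (CCl4), a liver toxin, and the RNA was poly(A)-selected from tissue of each lobe. One group of 3 libraries came from mice that also received AL/NP (titled Al/NP high in the labels), nanoparticles loaded with the bisphosphonate alendronate, at 4 mg/kg alendronate in 2 injections per week over the last 2 weeks. The other group of 3 libraries came from fibrotic controls labelled untreated, so CCl4 was shared by all 6 and neither healthy liver nor an empty particle was compared. The labels number the libraries without saying that each is a separate animal, and the p-values then measure only the spread between these libraries.

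Matrix metalloproteinases are zinc-dependent enzymes that cut collagens and other matrix proteins, and most are made as inactive precursors. Timps are small proteins that bind the active site of these enzymes and block it. In fibrotic liver, Timp1 is a product of activated stellate cells and other cells and is known as a brake on scar breakdown, whereas in mice Mmp13 and the macrophage enzyme Mmp12 are linked to the removal of scar collagen and elastin.

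RefSeq promoter windows on GRCm38.p6, from 250 bases before to 50 after a start site, held 8 windows for 7 of the 10 genes. The windows of Timp1, Mmp13 and Mmp12 are shown because the activator protein 1 (AP-1) site, bound by Fos and Jun proteins, is a known control element of Timp1 and of collagenase genes. The windows lie at chrX:20869916-20870215, chr9:7272264-7272563 and chr9:7347124-7347423, all on the plus strand, and the last belongs to the more downstream of 2 start sites listed for Mmp12. Capitals mark TGANTCA or, in Timp1, the variant TGAGTAA, each searched on both strands.
Timp1: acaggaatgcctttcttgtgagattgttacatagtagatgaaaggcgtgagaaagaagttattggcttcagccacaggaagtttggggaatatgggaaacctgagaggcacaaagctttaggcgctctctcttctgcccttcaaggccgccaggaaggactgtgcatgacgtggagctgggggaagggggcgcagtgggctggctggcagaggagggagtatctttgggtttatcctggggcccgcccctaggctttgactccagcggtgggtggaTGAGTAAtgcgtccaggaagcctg
Mmp13: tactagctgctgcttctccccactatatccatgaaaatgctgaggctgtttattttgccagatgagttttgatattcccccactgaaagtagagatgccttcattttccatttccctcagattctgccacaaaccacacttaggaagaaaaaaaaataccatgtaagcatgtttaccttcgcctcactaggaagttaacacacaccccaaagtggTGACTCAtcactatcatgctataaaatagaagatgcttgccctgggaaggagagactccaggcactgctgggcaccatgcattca
Mmp12: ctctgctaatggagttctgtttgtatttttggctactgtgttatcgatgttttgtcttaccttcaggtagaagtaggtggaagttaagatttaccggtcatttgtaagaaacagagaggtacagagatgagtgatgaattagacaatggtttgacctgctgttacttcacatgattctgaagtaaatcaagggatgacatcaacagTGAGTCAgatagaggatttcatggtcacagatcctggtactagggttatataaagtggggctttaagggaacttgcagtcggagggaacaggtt

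TGANTCA was found in 2 of the 8 windows, 35 bases before the start site of Mmp13 and 44 bases before this start site of Mmp12, and 7.81% of 32851 windows of the same length held it. TATAAA, on either strand, was in 3 of the 8 windows, those of Mmp13, Mmp8 and the Mmp12 window shown, and in 13.6% of all windows. TGAGTAA, a letter string added after TGANTCA was not found in the Timp1 window, lay at position 27 after the Timp1 start and was in 2.68% of windows. The STAT letters TTCNNNGAA were in 0 of the 8 windows and in 8.30% of all windows, which says only that these letters were not there. The windows of Timp2 and Timp3 were rich in G and C, at 68.7% and 67.0%, against 43.7% for Mmp13. A match is a description of letters, not a site in use.

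Library totals ranged from 30554483 to 33283147 counts with AL/NP and from 32694163 to 39838428 in controls. Values are given as TMM-scaled CPM, read counts relative to library size, a scaling that adjusts for an average shift in library composition. A level of 3 counts was 0.0826 to 0.104 CPM, a floor that covers counting error only. Markers of hepatocytes were abundant in every library, with 8 markers summing to 49280 to 56365 CPM with AL/NP, against 59389 to 77381 CPM in controls. All 10 genes passed the filter on low counts and entered a fit over 15939 genes.

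The quasi-likelihood test of edgeR called 0 of the 10 genes at an adjusted p of 0.05 (Benjamini-Hochberg over all genes tested), where it called 0.0816% of all genes in either direction, 0.0627% higher and 0.0188% lower with AL/NP. DESeq2 also called 0 of the 10, where it called 5.62% of all genes. At an unadjusted p under 0.05 there were 3 of the 10, Timp1, Timp2 and Mmp14, all higher with AL/NP, where 9.37% of all genes passed in that direction and 19.6% in either. With AL/NP replicate 3 left out 1 of the 10 passed (Mmp14), and likewise 1 with control replicate 1 left out (Timp1) or control replicate 2 left out (Timp1). The groups did not overlap in 2 of the 10, Timp1 and Mmp14, both higher with AL/NP, where 14.5% of all genes did so in that direction and 29.5% in either. The log2 fold change (AL/NP over control) was above 0 in 8 of the 10, against 50.0% of all genes tested, and its median was 0.39, against -0.00025 over all genes.

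**Figure D1:**
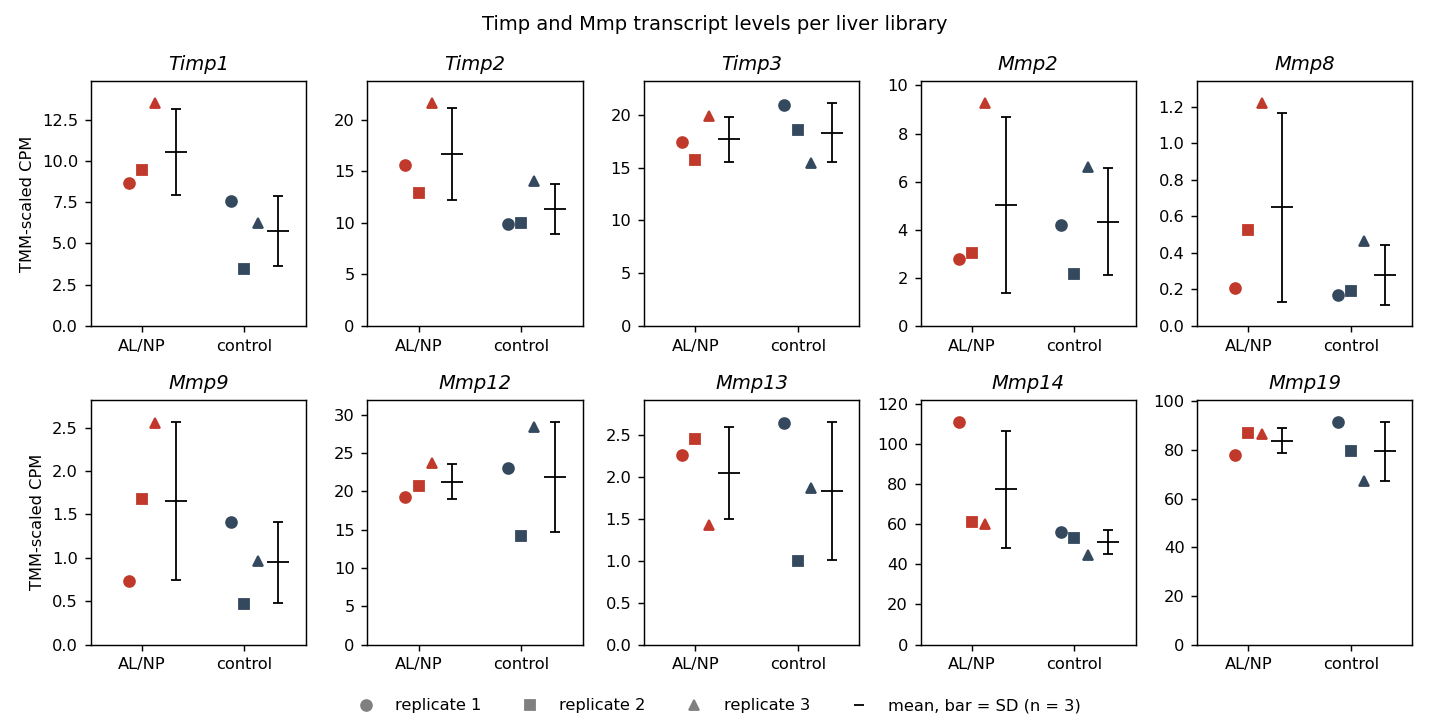
Level of each of the 10 genes in TMM-scaled CPM (linear axis from 0) in the 3 AL/NP and 3 control libraries, with a marker shape for each replicate number and a bar for the mean and SD. Points of the 2 groups do not overlap in Timp1 and Mmp14, and AL/NP replicate 3 is the highest of all 6 libraries in Timp1, Timp2, Mmp2, Mmp8 and Mmp9.

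Timp1 (ENSMUSG00000001131, GRCm38 chromosome X, 20870166 to 20874735, plus strand, protein coding) encodes a secreted inhibitor that blocks most soluble Mmps. It measured 8.65, 9.44 and 13.5 CPM in AL/NP replicates 1 to 3, against 7.58, 3.45 and 6.24 CPM in control replicates 1 to 3. Every AL/NP library was above every control, although AL/NP replicate 1 and control replicate 1 lay close together. The means were 10.5 ± 2.596 CPM with AL/NP, against 5.76 ± 2.11 CPM in controls (SD, n = 3 each), a log2 fold change of 0.87 (SE 0.30, edgeR unadjusted p = 0.0181, adjusted p = 0.188). It was above 0 under each of 15 alternative settings, between 0.59 and 1.12, with adjusted p from 0.0440 to 0.325. The lowest of these, with no filter on low counts beyond 1, was the 1 setting that passed the threshold. That setting called 747 of 29551 genes tested, where the fit over 15939 genes called 13. In bulk tissue, fewer cells of a type and less RNA per cell cannot be told apart, here and for the genes that follow. Timp1 lies within Syn1 on the opposite strand, where the annotated exons of both genes share 0 bases and Syn1 had 2.55 counts per 100 of Timp1.

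Timp2 (ENSMUSG00000017466, chromosome 11, 118301069 to 118355740, minus strand) encodes an inhibitor that also takes part in the activation of proMmp2 by Mmp14 at the cell surface. It measured 15.6, 12.9 and 21.6 CPM in AL/NP replicates 1 to 3, against 9.88, 10.03 and 14.1 CPM in controls. The groups overlapped, since control replicate 3 lay above AL/NP replicate 2. The means were 16.7 ± 4.47 CPM with AL/NP, against 11.3 ± 2.40 CPM in controls (SD, n = 3 each), a log2 fold change of 0.56 (SE 0.23, edgeR unadjusted p = 0.0390, adjusted p = 0.234). Without AL/NP replicate 3 it was 0.33.

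Timp3 (ENSMUSG00000020044, chromosome 10, 86300372 to 86349506, plus strand) encodes the inhibitor that stays bound to the matrix and also blocks Adam17. It measured 17.4, 15.7 and 19.9 CPM in AL/NP replicates 1 to 3, against 21.0, 18.6 and 15.4 CPM in controls, ranges that overlapped almost fully. The log2 fold change was -0.05 (SE 0.17, edgeR adjusted p = 0.884), and its sign turned in 3 of 15 settings, all with values near 0. Timp3 lies within Syn3 on the opposite strand, with 1733 exonic bases in common, and Syn3 had 3.28 counts per 100 of Timp3. The strand setting of the counting is not given in the sources used here, so reads of such partners may be shared.

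The balance among the inhibitors was compared per length, as reads per kilobase of the union of annotated exons, on the same library scaling as CPM (RPKM). The RPKM of Timp1 was 4.56, 5.52 and 6.21 times that of Timp3 in AL/NP replicates 1 to 3, against 3.32, 1.71 and 3.71 times in control replicates 1 to 3. Such a ratio within a library does not depend on how libraries are scaled, and all 3 AL/NP libraries were above all 3 controls. Timp1 by itself was also apart between the groups, so this ratio is not a separate result, and it carries no test. The size of the ratio does depend on the length used. Per length of the longest transcript, Timp1 was at 3.91 and Timp3 at 3.93 RPKM in control replicate 2. Timp1 made up 61.4%, 67.0% and 65.5% of the summed RPKM of the 3 inhibitors with AL/NP, against 62.6%, 44.5% and 56.0% in controls, and here control replicate 1 lay within the AL/NP range. The summed inhibitor RPKM was 15.9, 15.9 and 23.2 with AL/NP, against 13.6, 8.74 and 12.5 in controls. These sums are descriptions of the chosen genes and carry no test.

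Mmp14 (ENSMUSG00000000957, chromosome 14, 54431612 to 54445364, plus strand) encodes the membrane-anchored protease MT1-MMP, which cuts fibrillar collagen and activates proMmp2. It measured 111, 60.9 and 60.2 CPM in AL/NP replicates 1 to 3, against 56.2, 53.1 and 44.6 CPM in controls. All AL/NP libraries were above all controls, but AL/NP replicate 1 stood far above the other 5 libraries. The means were 77.4 ± 29.2 CPM with AL/NP, against 51.3 ± 5.98 CPM in controls (SD, n = 3 each), a log2 fold change of 0.59 (SE 0.25, edgeR unadjusted p = 0.0422, adjusted p = 0.241). Without AL/NP replicate 1 it was 0.24. The RPKM of Mmp14 was 4.66, 3.10 and 1.82 times that of Timp2 with AL/NP, against 3.72, 3.46 and 2.07 times in controls, so the groups overlapped.

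Mmp2 (ENSMUSG00000031740, chromosome 8, 92827291 to 92853420, plus strand), gelatinase A of stellate cells and fibroblasts and the protease that Mmp14 activates, varied widely within both groups. It measured 2.78, 3.05 and 9.26 CPM in AL/NP replicates 1 to 3, against 4.19, 2.18 and 6.62 CPM in controls. Replicate 3 was the highest library of each group, and the ranges overlapped. With all libraries it had a log2 fold change of 0.22 (SE 0.54, edgeR adjusted p = 0.844). Leaving out AL/NP replicate 3 gave -0.57, and leaving out control replicate 2 gave -0.12. The 15 stellate cell and myofibroblast markers, all detected, summed to 219, 246 and 366 CPM with AL/NP, against 312, 251 and 366 CPM in controls, also highest in replicate 3 of each group. Their part in the level of Mmp2 was not tested.

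Mmp9 (ENSMUSG00000017737, chromosome 2, 164940780 to 164955850, plus strand), gelatinase B of neutrophils and macrophages, had under 100 counts in every library. It measured 0.730, 1.68 and 2.55 CPM in AL/NP replicates 1 to 3 (21, 61 and 88 counts), against 1.41, 0.470 and 0.963 CPM in controls (49, 17 and 31 counts). AL/NP replicates 2 and 3 were above every control, and AL/NP replicate 1 was below control replicates 1 and 3. Its log2 fold change of 0.81 (SE 0.52, edgeR adjusted p = 0.397) became 0.36 when AL/NP replicate 3 was left out, 0.47 when control replicate 2 was, and 1.22 when control replicate 1 was.

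Mmp8 (ENSMUSG00000005800, chromosome 9, 7558456 to 7568485, plus strand), the collagenase stored in neutrophil granules, had the fewest counts of the 10 genes. Its counts were 6, 19 and 42 in AL/NP replicates 1 to 3, against 6, 7 and 15 in controls, or 0.209, 0.523 and 1.22 CPM with AL/NP, against 0.172, 0.193 and 0.466 CPM in controls. AL/NP replicate 1 lay among the controls and AL/NP replicate 3 above all other libraries. The log2 fold change was 1.25, the highest of the 10 genes, but its SE was 0.67 (edgeR adjusted p = 0.318). Leaving out AL/NP replicate 3 gave 0.44, and leaving out control replicate 3 gave 1.82. A difference of this size was not resolved at these counts.

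The summed level of neutrophil markers was also highest in AL/NP replicate 3. The 15 markers summed to 42.6, 61.1 and 88.9 CPM in AL/NP replicates 1 to 3, against 24.6, 24.2 and 40.04 CPM in controls, with 0 of the 15 at 0 in all libraries. Of the 8 that could be tested, all had a log2 fold change above 0 (median 1.39), 6 had an unadjusted p under 0.05 and edgeR called 0, while DESeq2 called 4. Trem1, 1 of these 8, had 10, 20 and 21 counts with AL/NP and 5, 2 and 5 in controls. It thus passed the filter on low counts only through the AL/NP libraries. Over all genes, 9.37% were higher at that p and DESeq2 called 5.62% in either direction. The count of 6 became 12 when AL/NP replicate 1 was left out and 11 when control replicate 3 was, in fits that tested more genes. Among the AL/NP libraries, every marker but Hdc and Stfa2l1 was highest in replicate 3. Hdc, histidine decarboxylase, measured 5.21, 5.70 and 4.29 CPM in AL/NP replicates 1 to 3, and Stfa2l1 had 12, 10 and 10 counts there. Granule genes of maturing neutrophils did not pass the filter on low counts, with few counts in AL/NP replicate 1 and in controls. Ngp, neutrophilic granule protein, had 6, 38 and 84 counts with AL/NP and 4, 5 and 7 in controls. Mpo, myeloperoxidase, had 4, 31 and 65 counts with AL/NP and 4, 1 and 4 in controls. Ly6g, the surface marker of mouse neutrophils, had 0, 3 and 8 counts with AL/NP and 0, 0 and 5 in controls. Their part in Mmp8 and Mmp9 was not tested.

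**Figure D2:**
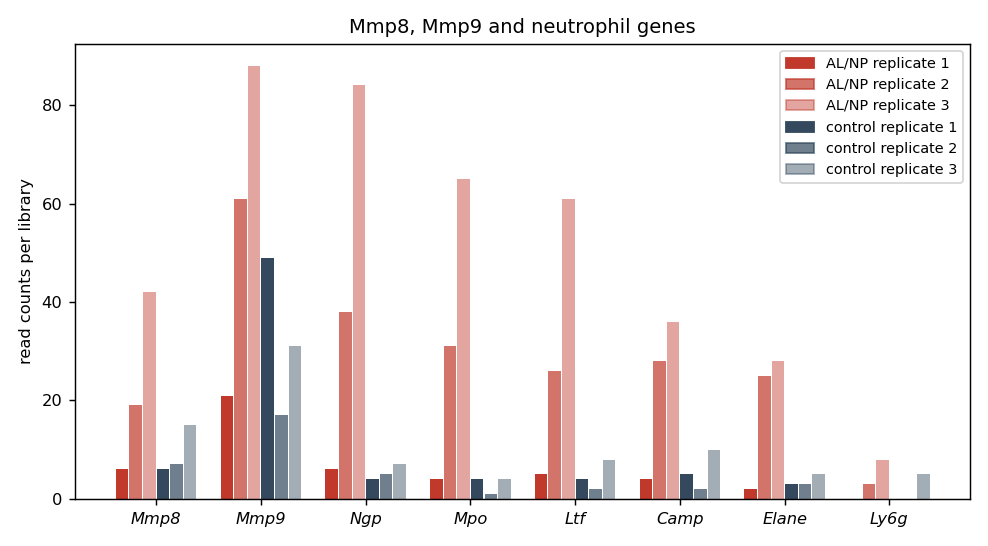
Read counts per library (linear axis from 0, not scaled for depth) of Mmp8, Mmp9 and 6 neutrophil genes, with AL/NP bars in red left of control bars in blue-grey and a lighter shade for a higher replicate number. In AL/NP replicate 3 the bars reach 42 counts for Mmp8, 88 for Mmp9 and 84 for Ngp, the highest of the 6 libraries for each.

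Mmp12 (ENSMUSG00000049723, chromosome 9, 7344381 to 7369499, plus strand), the elastase of macrophages, had higher and lower values among controls than among AL/NP libraries. It measured 19.2, 20.8 and 23.7 CPM in AL/NP replicates 1 to 3, against 23.0, 14.2 and 28.5 CPM in controls, so the AL/NP libraries lay inside the control range. The log2 fold change was -0.04 (SE 0.24, edgeR adjusted p = 0.936), and its sign turned in 5 of 15 settings. General macrophage and monocyte markers had another pattern: all 15 were tested, all 15 had a log2 fold change above 0 (median 0.91), and 10 had an unadjusted p under 0.05, with 0 called by edgeR and 6 by DESeq2. Among all genes, 9.37% were higher at that p and DESeq2 called 5.62% in either direction. The 15 markers summed to 738, 751 and 884 CPM with AL/NP, against 455, 396 and 409 CPM in controls. A difference between Mmp12 and these markers was not tested. Mmp1b overlaps the end of Mmp12 on the opposite strand with 157 exonic bases in common and had 0 counts.

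Mmp13 (ENSMUSG00000050578, chromosome 9, 7272514 to 7283331, plus strand) is the main interstitial collagenase of mice. It measured 2.26, 2.45 and 1.42 CPM in AL/NP replicates 1 to 3, against 2.64, 0.994 and 1.86 CPM in controls, with the highest and the lowest library both among controls. Its log2 fold change of 0.16 (SE 0.39, edgeR adjusted p = 0.847) became -0.15 when control replicate 2 was left out and 0.52 when control replicate 1 was. The RPKM of Timp1 was 11.5, 11.6 and 28.6 times that of Mmp13 with AL/NP, against 8.64, 10.5 and 10.1 times in controls. All 3 AL/NP ratios were above all controls, by a small margin in AL/NP replicates 1 and 2. Timp1 by itself was apart between the groups too, so these ratios are not a separate result and carry no test. The RPKM of Timp1 relative to Mmp14 overlapped between the groups, at 0.523, 1.04 and 1.504 with AL/NP, against 0.905, 0.437 and 0.939 in controls.

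Mmp19 (ENSMUSG00000025355, chromosome 10, 128790910 to 128800824, plus strand), a secreted protease that cuts basement membrane proteins, was the most abundant of the 10 per length. It measured 77.9, 86.9 and 86.6 CPM in AL/NP replicates 1 to 3, against 91.5, 79.4 and 67.2 CPM in controls, with the AL/NP libraries inside the control range. Its log2 fold change of 0.08 (SE 0.16, edgeR adjusted p = 0.808) became -0.031 when control replicate 3 was left out. Tmem198b overlaps it on the opposite strand with 789 exonic bases in common and had 4.65 counts per 100 of Mmp19.

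Per length, the order of the 10 genes over all 6 libraries was led by Mmp19, with a mean of 23.1 RPKM. Mmp14 followed at 10.8, Timp1 at 9.17, Timp2 at 3.59, Mmp12 at 2.98 and Timp3 at 2.21 RPKM. Mmp2 averaged 1.39, Mmp13 0.725, Mmp9 0.367 and Mmp8 0.191 RPKM. Only Mmp19, at 19.0 to 25.9 RPKM, stood clear of its neighbour in this order, Mmp14 at 7.49 to 18.6 RPKM, while each other gene overlapped the next over the 6 libraries. This order depends on the length used. Per length of the longest transcript, Mmp14 averaged 23.9 RPKM with AL/NP and 15.8 in controls, beside 24.6 RPKM with AL/NP and 23.3 in controls for Mmp19. In AL/NP replicate 1 Mmp14 was then above Mmp19, at 34.3 against 22.9 RPKM, so Mmp19 stood clear only by the union of exons. By that length Timp3 averaged 3.74 RPKM with AL/NP and 3.88 in controls, beside 4.49 RPKM with AL/NP and 3.06 in controls for Timp2, so their order in controls turned round. Mmp12 averaged 4.75 RPKM with AL/NP and 4.89 in controls by that length, above Timp2 in both groups. The summed RPKM of the 3 inhibitors was 0.351, 0.394 and 0.547 times that of the 7 proteases with AL/NP, against 0.331, 0.253 and 0.374 times in controls, and the groups overlapped.

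**Figure D3:**
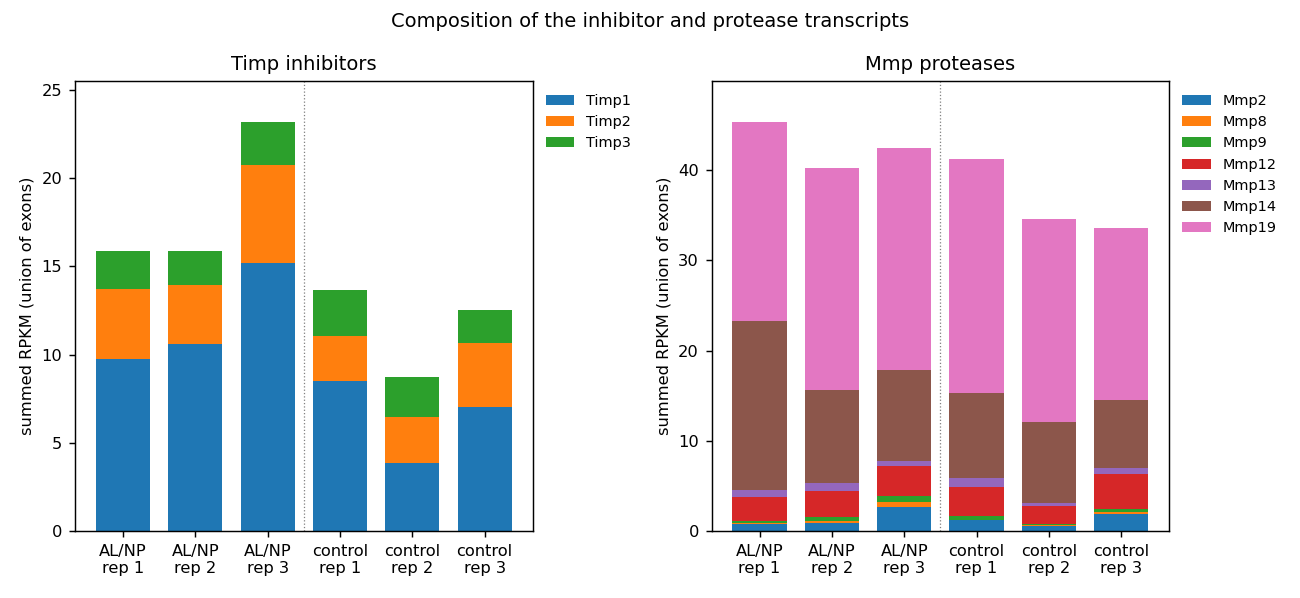
Stacked RPKM (union of exons, linear axis from 0) of the 3 Timp inhibitors and of the 7 Mmp proteases in each library, AL/NP left of the dotted line and controls right of it. Timp1 is the largest inhibitor segment in all 6 libraries, and the Mmp14 segment is tallest in AL/NP replicate 1, at 41.2% of the protease sum.

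Among 22 known inducers of Timp1 and Mmp transcription, 21 were tested, 17 had a log2 fold change above 0 and the median was 0.48. At an unadjusted p under 0.05 there were 11 higher and 1 lower with AL/NP, edgeR called 0, and DESeq2 called 4 higher and 0 lower, namely Il1b, Osm, Tgfb1 and the transcription factor Runx1. The shares over all genes were 9.37% higher and 10.3% lower at that p, and 5.62% called by DESeq2 in either direction. Il1b, the inflammatory cytokine, measured 4.87, 5.72 and 5.74 CPM with AL/NP, against 2.18, 1.24 and 2.11 CPM in controls, a log2 fold change of 1.56 (SE 0.27, edgeR adjusted p = 0.0839). Osm, the cytokine oncostatin M, measured 0.417, 0.440 and 0.551 CPM with AL/NP, against 0.0862, 0.0552 and 0.124 CPM in controls. Its log2 fold change was 2.38 (SE 0.47, edgeR adjusted p = 0.0995), with control values near the floor of 3 counts. Osm had 12, 16 and 19 counts with AL/NP and 3, 2 and 4 in controls. It thus passed the filter on low counts only through the AL/NP libraries, and its place among the inducers counted here rests on the group where it is high. Tgfb1, which drives matrix production, measured 7.75, 8.97 and 11.1 CPM with AL/NP, against 6.35, 4.56 and 5.03 CPM in controls (log2 fold change 0.81, SE 0.21, edgeR adjusted p = 0.140). Of the 7 AP-1 genes, Fosb was at 1.33, Fosl1 at 1.02, Junb at 0.82, Jund at 0.67, Fos at 0.65, Fosl2 at 0.40 and Jun at 0.029 on the log2 scale, with edgeR adjusted p from 0.156 to 0.985. Jun had an SE of 0.70 and was highest in control replicate 3. It measured 61.7, 23.6 and 30.0 CPM with AL/NP, against 20.3, 12.1 and 80.6 CPM in control replicates 1 to 3. Egr1, an immediate early factor, was the 1 gene lower at an unadjusted p under 0.05, at -0.98. The groups did not overlap in 11 of the 21, 9 higher and 2 lower, where 14.5% of all genes were apart and higher and 15.0% apart and lower. The 11 higher at an unadjusted p under 0.05 became 5 when control replicate 2 was left out.

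Beyond the 10 genes, 17 further Mmp and Timp genes were counted and 8 passed the filter, with a median log2 fold change of -0.06. Mmp24, a membrane-type protease best known from the nervous system, measured 8.10, 3.00 and 2.21 CPM with AL/NP, against 1.61, 1.74 and 1.06 CPM in controls. Mmp24 was the 1 of the 8, at a log2 fold change of 1.58 (SE 0.49, edgeR adjusted p = 0.159), with an unadjusted p under 0.05, and DESeq2 called it. The shares over all genes were 9.37% higher at that p and 5.62% called by DESeq2. Mmp3, stromelysin-1, was at 1.14 (SE 0.55) and Mmp7, matrilysin of epithelial cells, at 1.04 (SE 0.59). Mmp7 measured 11.3 CPM in AL/NP replicate 1, the library that was also highest for Mmp14 and Mmp24, against 1.74 to 4.36 CPM in the other 5. Without that library the log2 fold change was 0.82 for Mmp24, 0.56 for Mmp3 and 0.085 for Mmp7.

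**Figure D4:**
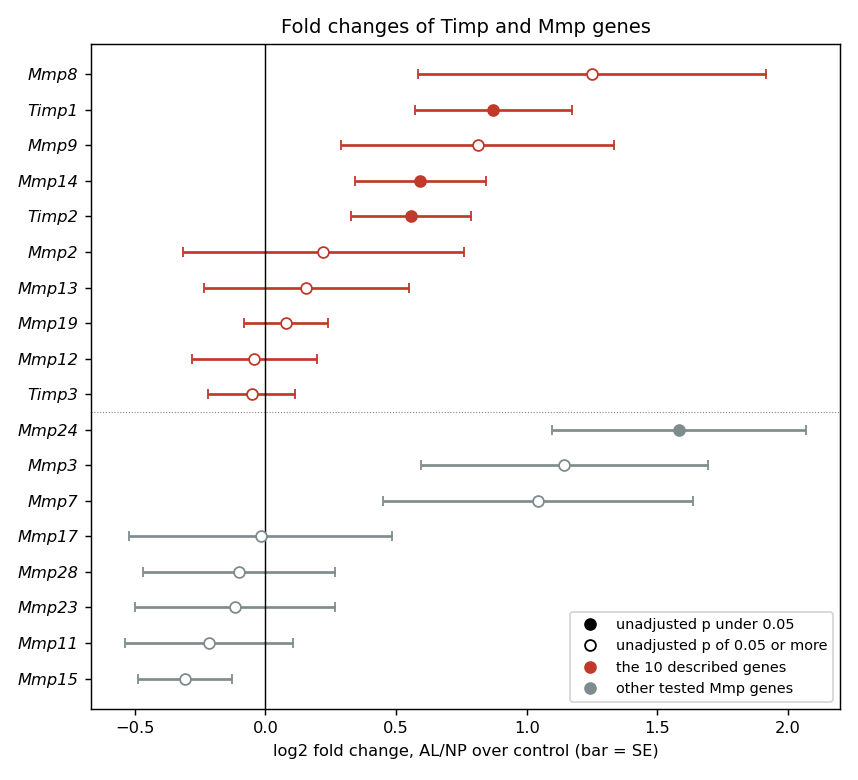
Log2 fold change (AL/NP over control, bars are SE) of the 10 genes in red and of the 8 other tested Mmp genes in grey, with filled points at an unadjusted p under 0.05. Timp1, Timp2, Mmp14 and Mmp24 are filled, and Timp3, Mmp12 and Mmp19 sit beside the line at 0.

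A list of 29 Adam and Adamts genes with the related metalloproteinases Mep1a, Mep1b and Bmp1 held values in both directions. Of these 32 genes, 22 were tested, Bmp1 among them, 8 with a log2 fold change above 0 and 14 below (median -0.08). At an unadjusted p under 0.05 there were 4 higher and 3 lower, and edgeR called 0. Over all genes, 9.37% were higher and 10.3% lower at that p. The 4 became 2 when AL/NP replicate 1, AL/NP replicate 3 or control replicate 2 was left out. Adamts4, an aggrecanase, measured 2.99, 2.06 and 2.70 CPM with AL/NP, against 0.833, 0.746 and 1.09 CPM in controls (log2 fold change 1.54, SE 0.29, edgeR adjusted p = 0.0962). Adamts7, which cuts cartilage oligomeric matrix protein, measured 7.82, 20.5 and 12.1 CPM with AL/NP, against 34.7, 32.5 and 40.3 CPM in controls (log2 fold change -1.41, SE 0.31, edgeR adjusted p = 0.108). Adamts6 was at -1.84 (SE 0.45, edgeR adjusted p = 0.126). In each of these 3 genes the AL/NP and control values stayed apart, and DESeq2 called all 3. Among all genes, the groups stayed apart in 29.5% and DESeq2 called 5.62%.

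In the plasminogen system, whose product plasmin activates several proMmps, 10 of 11 genes were tested. Beside 9.37% of all genes higher at an unadjusted p under 0.05, 1 of the 10 had such a p. This was Plaur, the urokinase receptor, at 11.7, 10.2 and 8.62 CPM with AL/NP, against 5.74, 4.78 and 3.08 CPM in controls (log2 fold change 1.16, SE 0.25, edgeR adjusted p = 0.108). Cpb2, an inhibitor of fibrinolysis, was at 0.32 (SE 0.17), or 0.17 without AL/NP replicate 3. The count of 1 became 3 when control replicate 1 or control replicate 3 was left out. Plat, Plau and Plg, the activators and plasminogen itself, were at -0.0045, -0.29 and 0.23.

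Of 13 other inhibitors and partners, 12 were tested and 5 had an unadjusted p under 0.05, all higher, with 0 called by edgeR and 2 by DESeq2. Over all genes, 9.37% were higher at that p and DESeq2 called 5.62% in either direction. The 5 became 2 when control replicate 2 was left out and 3 when AL/NP replicate 1 or AL/NP replicate 3 was. The 2 called by DESeq2 were Lcn2, whose human product binds MMP9, at 1.63 (SE 0.28), and Cd44, a hyaluronan receptor that can hold Mmp9 at the cell surface, at 0.81 (SE 0.14); edgeR gave both an adjusted p of 0.0783. Pzp, a plasma protease inhibitor of the alpha-macroglobulin family, measured 3157, 2252 and 2332 CPM with AL/NP, against 1893, 1642 and 1667 CPM in controls (log2 fold change 0.57, SE 0.20, edgeR adjusted p = 0.196). Lrp1, the receptor that clears Mmps and Timps from the surface, was at 0.034.

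All 26 matrix substrates were tested, with 14 log2 fold changes above 0, a median of 0.16, 3 at an unadjusted p under 0.05, all higher, and 0 called by edgeR or DESeq2. Of all genes tested, 9.37% were higher at that p, so 3 of 26 is near the background. The 3 were the proteoglycans Dcn at 0.52 (SE 0.19) and Bgn at 0.57 (SE 0.23) and fibronectin, Fn1, at 0.52 (SE 0.21), with edgeR adjusted p from 0.204 to 0.229. The groups did not overlap in 5 of the 26, these 3 with Hspg2 and Vtn, all higher. Among all genes tested, 14.5% were apart and higher, so 5 of 26 is near that share too. Leaving out AL/NP replicate 3 left 0 of Dcn, Bgn and Fn1 at an unadjusted p under 0.05, as did leaving out control replicate 2. Collagen genes Col1a1 and Col1a2, substrates of Mmp13 and Mmp14, were at -0.68 (SE 0.60) and -0.68 (SE 0.55).

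**Figure D5:**
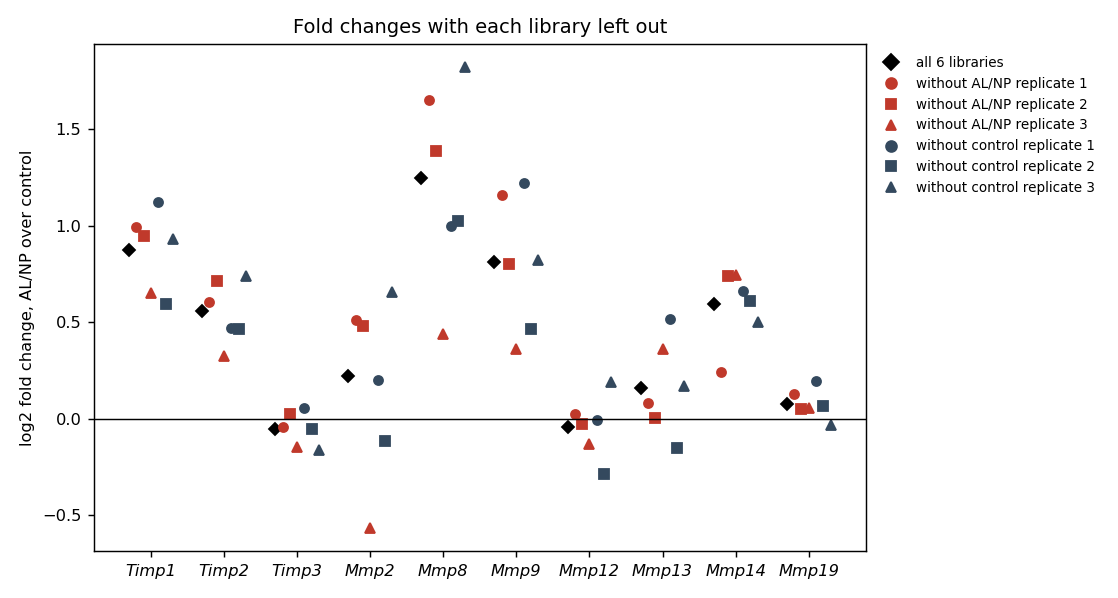
Log2 fold change (AL/NP over control) of the 10 genes in the fit of all 6 libraries (black diamonds) and with each library left out in turn (red for an AL/NP library, blue-grey for a control, shapes for replicate numbers). Timp1 stays between 0.59 and 1.12, Mmp14 drops to 0.24 without AL/NP replicate 1, and Mmp2 spans -0.57 to 0.66.

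Markers of the other cell types a liver piece can hold gave these values beside the 10 genes. Of 9 Kupffer cell markers, 6 had a log2 fold change above 0 (median 0.37), and the 3 with the smallest p-values were Cd5l at 1.264, Adgre4 at 1.45 and Cd163 at -1.28. In the macrophage list these were Mpeg1 at 1.20, Laptm5 at 1.44 and Chil3 at 3.78, and in the neutrophil list Clec4d at 1.76, S100a9 at 1.30 and Trem1 at 2.08. Of 15 stellate cell and myofibroblast markers, 4 were above 0 (median -0.16), with Myl9 at -0.56, Cygb at 0.51 and Reln at -0.56. The 10 endothelial markers had a median of 0.14, with Ptprb at -0.42, Pecam1 at 0.43 and Lyve1 at 0.38. The 5 tested cholangiocyte markers had a median of 0.57, with Sox9 at 0.60, Epcam at 0.82 and Spp1 at 0.43. The 8 hepatocyte markers had a median of -0.44, with Ttr at -0.82, Tat at -0.71 and Fgb at 0.41. Single libraries carried several of these values. Without AL/NP replicate 1, Epcam was at 0.17 and Sox9 at 0.13, and without control replicate 3, Reln was at -0.063. Spp1 was at 0.23 without AL/NP replicate 2, Lyve1 at 0.23 without AL/NP replicate 3, Pecam1 at 0.25 without control replicate 1 and Tat at -0.47 without AL/NP replicate 2. None of these genes was called by edgeR, and the part of any cell type in the levels of the 10 genes was not tested.

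Genes with the most similar library pattern were ranked by the root mean square difference, over the 6 libraries, of log2 CPM centred on the control mean, among 12212 genes with at least 1 CPM. Closest to Timp1 were Egr2 (difference 0.13), Irf5 (0.14) and Rftn1 (0.15). Irf5, for example, measured 9.14, 10.3 and 14.8 CPM with AL/NP, against 6.61, 3.89 and 7.24 CPM in controls. The closest gene was Atp8b2 for Timp2, Dync1li2 for Timp3, Lox for Mmp2 and Rassf4 for Mmp8. It was Cxcl14 for Mmp9, Tmem119 for Mmp12, Ier2 for Mmp13, Pih1d1 for Mmp14 and Map3k4 for Mmp19. Lox, the collagen cross-linking enzyme, measured 2.40, 2.81 and 7.22 CPM with AL/NP, against 3.85, 1.80 and 5.44 CPM in controls, which follows Mmp2 library by library with a difference of 0.086.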

How the data were processed

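RNA from fibrotic mouse liver was sequenced in paired ends from strand-marking libraries, per the labels' protocols. The authors deposited raw read counts by Ensembl gene, in whole numbers, 1 column per library; each column matched 1 sample by name. Per the submitters' processing notes, STAR 2.6.1a, featureCounts and DESeq2 1.26.0 were used with GRCm38; strand setting, annotation release and multi-match handling are not given in the sources used here. Of 41388 identifiers, 40254 had a symbol, and all 10 genes and all 200 genes of 13 further lists matched 1 identifier each. Positions and lengths came from GENCODE M21.

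Groups were compared with edgeR 4.0.16 in R 4.3.3 (quasi-likelihood test, robust, TMM, filterByExpr with a minimum count of 10), over 15939 genes, adjusted by Benjamini-Hochberg with a threshold of 0.05; SE is the absolute log2 fold change over the square root of F. Alternatives were DESeq2 1.42.0, limma-voom (limma 3.58.1), other scalings and filters, a replicate block, no robust estimation and each library left out. The test was checked on simulated data with 100 genes changed by 1 and 100 by 2 on the log2 scale. It recovered 37% of those changed by 1, so most of these went uncalled, and 93% of those changed by 2. Of its 140 calls, 10 were false. No pair of libraries was closer than 30.6 in chi-square per degree of freedom, so none was a duplicate. Control replicate 3 stood at 227 and 152 from control replicates 1 and 2, which were at 37 from each other. From the AL/NP libraries it stood at 299 to 411. Its TMM factor was 0.809, the lowest, where the other libraries had 0.937 to 1.13.

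The 10 genes and the lists were chosen with earlier results of these data known. Named from each list were called genes and the 3 with the smallest p-values, and for likeness the 3 genes nearest to Timp1 and the 1 nearest to each other gene; Lrp1, Plat, Plau, Plg, Col1a1, Col1a2, Egr1, Runx1, the AP-1 genes, Hspg2, Vtn, Hdc, Stfa2l1, Ngp, Mpo, Ly6g and the untested Mmp1a, Mmp1b, Mmp10, Mmp25, Mmp27, Timp4 and Il6 were added after their values were seen. 1 gene of the plasminogen list that this rule names is not reported here.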

Additional observations from a re-analysis of the deposited data

How the results depend on the processing

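Timp1, Timp2, Mmp8, Mmp9 and Mmp14 had a log2 fold change above 0 under every alternative that gave a value; Mmp8 and Mmp9 could not be fitted with at least 50 counts in 3 libraries. The edgeR count of 10 genes higher and 3 lower became 0 and 0 with library totals as the only scaling, with the 50-count filter and without robust estimation, where 2254, 2786 and 3133 genes had an unadjusted p under 0.05. It became 374 and 373 with no filter beyond 1 count, where 747 of 29551 genes tested were called, with 1 of the 10 genes, Timp1, among them. It became 445 and 451 with DESeq2, and limma-voom called 9 higher and 1 lower. With a library left out it was 0 to 3 higher and 0 to 2 lower, in fits with fewer samples, and the number of the 10 genes at an unadjusted p under 0.05 was 1 to 3.

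Directions turned for genes near 0; the cause was not tested. With library totals as the only scaling, which moved the median of all genes to 0.13, Timp3 was at 0.066 and Mmp12 at 0.13. Mmp12 was at 0.0061 with the replicate block and at 0.014 with limma-voom. With a library left out, Timp3 ranged from -0.16 to 0.056, Mmp2 from -0.57 to 0.66, Mmp12 from -0.29 to 0.19, Mmp13 from -0.15 to 0.52 and Mmp19 from -0.031 to 0.19. Of the 39 other genes named by the rule of smallest p-values, 0 changed direction in any alternative. Genes added after their values were seen, such as Jun, Plat and Lrp1, were not followed through these settings.

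Same-numbered libraries showed no strong shared pattern. Their deviations from the group means correlated at -0.0548, 0.0427 and 0.0752 over 15939 genes. AL/NP replicate 1 correlated best with control replicate 2, at 0.0974. With 3 libraries per group, such a check cannot exclude that the numbers pair the libraries. With the number as a replicate block edgeR called 14 genes higher and 9 lower, 0 of the 10 described. Mmp8, Mmp9 and Mmp13 rested on under 100 counts per library, which limits their precision.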

Other observations

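Several Mmp genes were at or near the limit of detection in these fibrotic livers and entered no test. Mmp1b, 1 of 2 mouse relatives of the human interstitial collagenase, had 0 counts in all 6 libraries, and Mmp1a had 1 count in all. Timp4, the inhibitor best known from heart, had 0 counts with AL/NP and 1 in controls. Mmp10, stromelysin-2, had 1, 6 and 3 counts in AL/NP replicates 1 to 3 and 6, 1 and 1 in controls. Mmp27 had 3, 8 and 22 counts with AL/NP and 2, 2 and 10 in controls, highest in replicate 3 of each group like Mmp2. Mmp25, a membrane-type protease of leukocytes, had 3, 8 and 8 counts with AL/NP and 4, 6 and 4 in controls. These counts were too low to enter the test. Il6, a cytokine that induces Timp1, had 5, 0 and 0 counts with AL/NP and 1, 0 and 0 in controls.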
